A study of Mus musculus with 12 samples.

Results

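The comparison described here is methionine restriction in the liver of mice with progeria: 3 arrays of Lmna G609G knock-in mice on a methionine-restricted diet (KI_MR) against 3 arrays of Lmna G609G knock-in mice on the control diet (KI_CD). These are 6 of the 12 arrays in the series, chosen by genotype and diet alone and not by any measured value. Both groups were homozygous for the G609G allele of Lmna, which models Hutchinson-Gilford progeria, a disease of accelerated ageing in which a cryptic splice site in the lamin A gene yields the truncated protein progerin. The mice were males on a C57BL/6N background, bred from heterozygous parents, caged by sex and genotype, put on the diets at 7 weeks of age and sampled at 110 days after 6 hours of fasting. The allele was carried in every cell, so effects inside hepatocytes and effects reaching the liver from other tissues cannot be told apart. The control diet and the restricted diet were both given as a mix of solid and crushed pellets. Wild-type mice from the same crosses on the same diets (WT_CD and WT_MR, 3 arrays each) served here only to set the change in knock-in liver beside the change in wild-type liver.

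Methionine is an essential amino acid and the precursor of S-adenosylmethionine, the methyl donor of the cell, and of cysteine, which in turn supplies glutathione and taurine. In liver the methionine cycle passes methyl groups to acceptors and returns homocysteine to methionine, while transsulfuration turns homocysteine into cysteine. When amino acids run short, uncharged tRNA activates the kinase GCN2, and the transcription factor ATF4 then raises genes of amino acid synthesis, amino acid uptake and folate metabolism by binding C/EBP-ATF response elements. Liver also carries a large set of genes that differ between males and females, set by the pattern of growth hormone release.

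All levels are log2 of the deposited array intensity, each change is KI_MR minus KI_CD on that scale, and ± is the standard error of the change from a linear model (limma) fitted to all 12 arrays with 3 arrays per group. A gene is said to have risen or fallen where the adjusted p over 19938 genes was under 0.05. The levels of different genes come from different probes and are not compared with each other. In whole liver, fewer cells of a type and less RNA per cell cannot be told apart.

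The arrays were alike in overall level, with array medians of 82 to 90 intensity units. The least typical array was KI_CD replicate 1, whose correlation with the arrays of its group averaged 0.986 where every other array averaged 0.989 to 0.994. The targeted gene, Lmna, was measured at 8.37, 7.85 and 7.79 in KI_CD, at 8.02, 7.75 and 7.78 in KI_MR, and between 7.34 and 7.63 in the wild-type arrays. The knock-in arrays all lay above the wild-type ones, although a probe set for the whole gene does not read the point mutation itself. The 12 hepatocyte markers summed to 128294 to 129633 intensity units in KI_CD and 125855 to 129303 in KI_MR. The summed markers of the other cell types overlapped between the diets too: 8161 to 11499 against 8892 to 10529 units for Kupffer cells and macrophages, 9364 to 13421 against 10300 to 10835 for stellate cells and fibroblasts, and 694 to 803 against 674 to 767 for lymphocytes. None of the 9 cell type lists held a gene that rose or fell by limma, 2 of their genes had an unadjusted p under 0.05, and no value in the table was 0.

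The promoters of 3 genes show the ATF4-type element in the sequences upstream of genes described below. Slc7a11 and Vldlr rose with the diet and are the risen genes whose RefSeq promoter window holds a match, and Asns, the asparagine synthetase gene, is the textbook ATF4 target. Each line gives the 250 bases before the transcription start, 5′ to 3′ on the gene's strand, with matches to TGATGNAAN on either strand in capitals. The windows are chr3:50443614-50443863 (minus strand) for Slc7a11, chr19:27216770-27217019 (plus strand) for Vldlr and chr6:7693210-7693459 (minus strand) for Asns, all in GRCm38.p6.
Slc7a11: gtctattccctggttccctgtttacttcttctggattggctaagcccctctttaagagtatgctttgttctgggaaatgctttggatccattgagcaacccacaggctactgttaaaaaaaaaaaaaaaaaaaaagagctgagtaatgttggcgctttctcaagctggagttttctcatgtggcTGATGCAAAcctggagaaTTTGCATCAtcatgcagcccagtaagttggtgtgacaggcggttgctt
Vldlr: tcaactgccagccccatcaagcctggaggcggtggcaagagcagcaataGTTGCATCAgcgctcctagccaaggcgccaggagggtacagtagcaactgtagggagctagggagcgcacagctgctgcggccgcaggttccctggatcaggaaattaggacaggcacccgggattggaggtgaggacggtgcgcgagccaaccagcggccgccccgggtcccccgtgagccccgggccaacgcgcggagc
Asns: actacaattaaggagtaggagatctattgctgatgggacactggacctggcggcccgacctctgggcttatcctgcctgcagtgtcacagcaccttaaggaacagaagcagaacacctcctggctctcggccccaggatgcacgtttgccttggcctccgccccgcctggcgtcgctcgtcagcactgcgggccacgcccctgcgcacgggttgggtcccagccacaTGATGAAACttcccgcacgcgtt

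The Slc7a11 promoter held the element in both orientations, at 66 to 58 and at 48 to 40 bases before the start. In Vldlr it lay on the opposite strand at 201 to 193 bases, and in Asns it lay at 23 to 15 bases. Over windows of 300 bases (250 before and 50 after the start), 2 of the 10 risen genes with a promoter in the RefSeq table held a match (20%), against 0 of the 21 fallen genes and 561 of all 15614 genes with a promoter (3.59%). The antioxidant element searched as TGACNNNGC, which can overlap the other motif, was in 1 of the 10 risen genes, 1 of the 21 fallen genes and 15.2% of all genes. A match describes letters only and does not show binding. Aldh1l2 and Itga6 had no entry in the table.

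Methionine restriction changed 35 genes in knock-in liver, which is 0.176% of the genes tested. Of these 12 rose (0.0602%) and 23 fell (0.115%). The rises ran from 1.35-fold to 16.9-fold and were led by the cytochrome P450 gene Cyp2b13, the taurine synthesis gene Csad, the cystine transporter gene Slc7a11, the lipoprotein receptor gene Vldlr and the mitochondrial folate enzyme gene Aldh1l2. The falls ran from 1.34-fold to 3.99-fold and were led by the receptor gene Adgrf1, the complement gene C6, the heparan sulfate sulfatase gene Sulf2 and the lectin gene Clec2h. All 35 genes had no overlap between the 3 KI_MR and the 3 KI_CD arrays, as did 10.7% of all genes (3.67% with KI_MR higher and 6.99% with KI_MR lower). Before adjustment, 1551 genes (7.78%) had p under 0.05, 539 higher (2.7%) and 1012 lower (5.08%), and the median change of all genes was -0.02. Centring each array on its median left 18 genes, 8 higher and 10 lower.

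**Figure D1:**
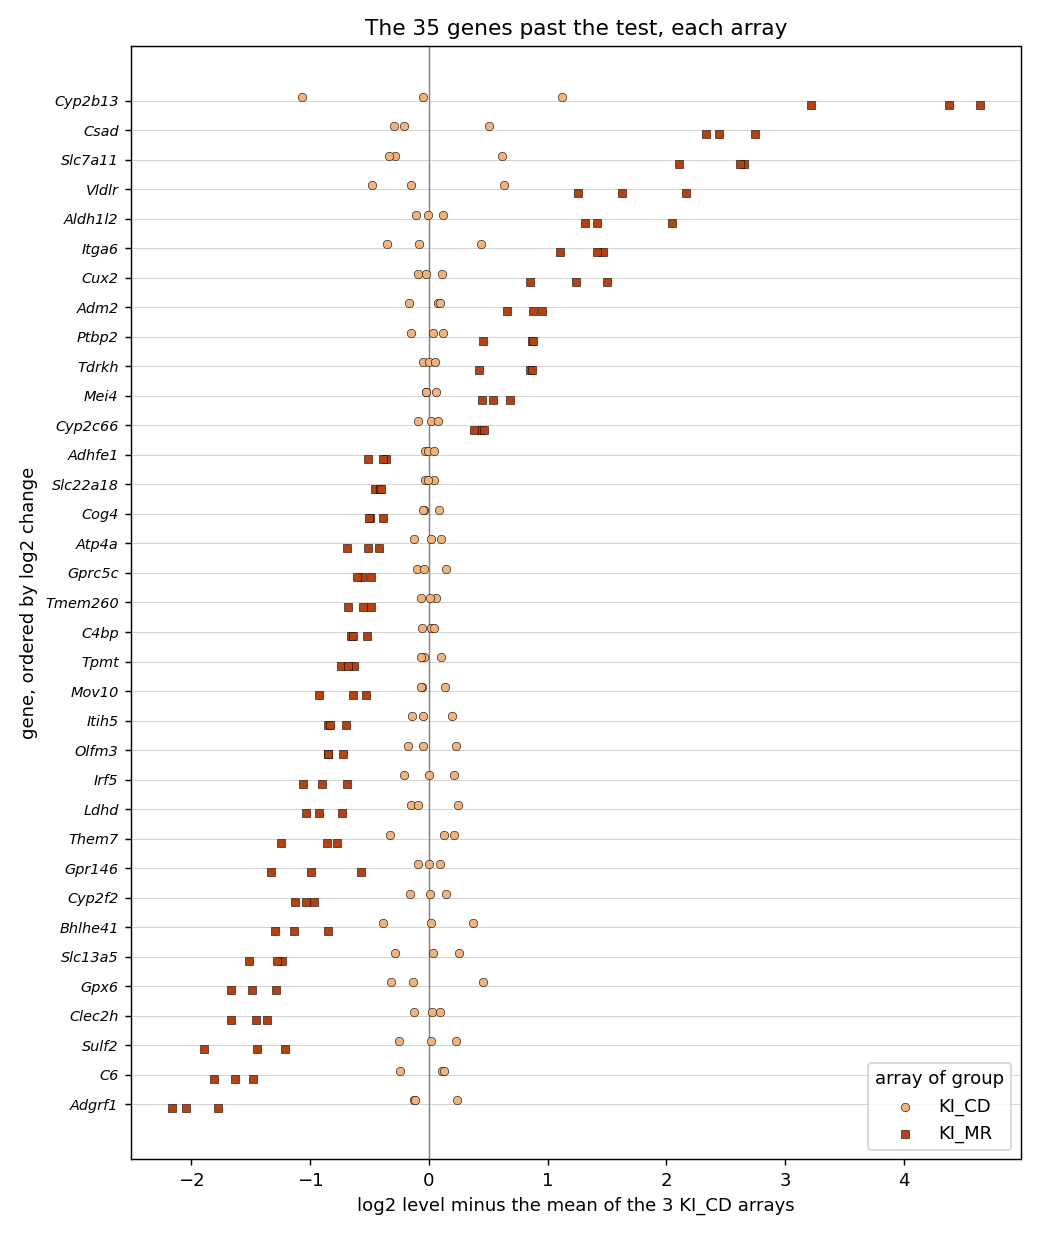
The 35 genes that rose or fell, with 1 point per array: the x axis is the log2 level minus the mean of the 3 KI_CD arrays, circles are KI_CD arrays and squares are KI_MR arrays. In every gene the squares lie on 1 side of the circles, from Cyp2b13 at the top (mean change 4.08) to Adgrf1 at the bottom (mean change -2.00).

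The number of genes past the test moved with single arrays, from 7 without KI_MR replicate 3 to 94 without KI_CD replicate 1. Without KI_MR replicate 2 it was 69, and without KI_MR replicate 1, KI_CD replicate 2 or KI_CD replicate 3 it was 10, 14 and 8. Csad, Aldh1l2, Cyp2f2, Slc13a5, Clec2h and Adgrf1 passed in all 12 fits that left out 1 array, and each of the other 29 genes lost its call in at least 1 of them. Left out on its own, KI_CD replicate 1 took the call from 5 of the 35 genes, Gpr146 (adjusted p = 0.0575), Ptbp2 (0.0544), Tdrkh (0.0705), Mei4 (0.0632) and Cog4 (0.0705), all by limma. KI_MR replicate 2 took it from Slc7a11, Vldlr, C6 and Ptbp2. In none of the 12 fits did the change of a called gene reverse, and the ratio to its value over all arrays stayed between 0.812 and 1.2. Fitted on the 6 knock-in arrays alone, 0 genes passed by limma and 1472 reached an unadjusted p under 0.05. Where a gene outside the 35 is said below to pass without 1 array, it passed in the named fit only. It missed the test in the other fits without 1 array. Such fits were picked with their results seen, so their p-values are descriptive and make no call. Of 103 named genes outside the 35, 24 passed under at least 1 of the alternatives listed at the end. In what follows, the range given after the median of a list is that over the fits without 1 knock-in array. Counts within a list stand beside the shares of all genes. These were 42.9% above 0, 56.4% below 0 and 7.78% with an unadjusted p under 0.05 by limma.

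Among the genes of cysteine use, the change was concentrated in Csad, which encodes cysteine sulfinic acid decarboxylase, the enzyme that commits cysteine sulfinate to taurine. Its levels were 7.77, 8.49 and 7.69 in KI_CD and 10.43, 10.32 and 10.73 in KI_MR. Every restricted array lay far above every control array, and the rise was 5.68-fold (2.51 ± 0.20, limma adjusted p = 0.0012). The enzyme just before it, cysteine dioxygenase (Cdo1), was at 12.18, 12.77 and 12.84 in KI_CD and 12.63, 12.92 and 12.93 in KI_MR. Those values overlapped (0.23 ± 0.16, limma adjusted p = 0.86).

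The 2 transsulfuration enzymes lay close together in both diets. Cystathionine beta-synthase (Cbs) was at 11.87, 12.01 and 11.82 in KI_CD and 11.69, 11.93 and 11.71 in KI_MR, a difference of -0.13 ± 0.12. Cystathionine gamma-lyase (Cth) was at 11.87, 12.19 and 12.20 against 11.86, 11.98 and 12.03, a difference of -0.13 ± 0.15. The ranges of both genes overlapped. Of the 14 measured genes for transsulfuration, taurine and sulfide oxidation, 1 rose, 0 fell, 5 were above 0 and the median was -0.07 (-0.09 to -0.03), where 42.9% of all genes were above 0. Next by p came the taurine transporter gene Slc6a6 at 0.42 ± 0.12 and the sulfurtransferase gene Mpst at -0.35 ± 0.11, both named after their values were seen and neither past the test (limma adjusted p of 0.284 and 0.355).

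The cystine transporter gene changed by about as much. Slc7a11 encodes the light chain of the cystine-glutamate antiporter. It was at 5.81, 4.91 and 4.86 in KI_CD and 7.29, 7.85 and 7.81 in KI_MR, so the highest control array lay below the lowest restricted one. The rise was 2.46 ± 0.37 (limma adjusted p = 0.0317). Because the mean of the control group lay under the lower quartile of gene levels, its size is best read as at least 4.09-fold. KI_CD replicate 1 was the highest control array, and without it the change was 2.77 with adjusted p = 0.00922. The call was lost in 8 of the 12 fits without 1 array, with adjusted p up to 0.167.

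The partner chain of that antiporter and of the large neutral amino acid carrier is Slc3a2, and the neutral carrier itself is Slc7a5. Slc3a2 was at 11.51, 10.70 and 10.77 in KI_CD and 12.12, 11.79 and 11.95 in KI_MR (0.96 ± 0.19, limma adjusted p = 0.0915). Slc7a5 was at 8.06, 8.13 and 7.92 against 9.41, 8.48 and 9.33 (1.03 ± 0.20, limma adjusted p = 0.0886). The diets did not overlap in either gene, although neither passed over all arrays. Slc3a2 passed without KI_CD replicate 1 (1.22 ± 0.12, limma adjusted p = 0.00145) and missed without KI_MR replicate 2 (limma adjusted p = 0.0957). Slc7a5 passed without KI_MR replicate 2 (1.33 ± 0.10, limma adjusted p = 0.00216) and missed without KI_CD replicate 1 (limma adjusted p = 0.105).

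Not every transporter was higher. The large neutral amino acid transporter gene Slc43a1 was at 8.04, 8.24 and 8.54 in KI_CD and 6.52, 7.58 and 7.09 in KI_MR (-1.21 ± 0.27, limma adjusted p = 0.157). The glutamate transporter gene Slc1a2 (-0.57 ± 0.13) and the mitochondrial ornithine carrier gene Slc25a15 (-0.65 ± 0.16) had lower means that also missed the test over all arrays, and without KI_CD replicate 1 Slc25a15 passed at -0.83 ± 0.14 (limma adjusted p = 0.0383). Of the 20 amino acid transporters, 1 rose and 0 fell, where 0.176% of all genes passed, and 10 were above 0. In 9 the diets had no overlap, 4 higher and 5 lower, where 3.67% of all genes were higher and 6.99% lower without overlap. The median of the list was -0.04 (-0.09 to 0.03). Slc7a5, Slc3a2, Slc43a1, Slc1a2 and Slc25a15 were chosen after their values were seen.

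Aldh1l2 led the serine and folate genes. It encodes the mitochondrial enzyme that oxidises formyl-tetrahydrofolate with NADP. Its levels were 5.93, 5.70 and 5.81 in KI_CD and 7.86, 7.13 and 7.23 in KI_MR. The control arrays lay within a narrow band and the restricted ones all above it, a rise of 3.02-fold (1.59 ± 0.17, limma adjusted p = 0.00471).

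Among the enzymes of serine synthesis and of the mitochondrial folate path, Psat1, Mthfd2 and Phgdh were higher in each restricted array than in any control array. None of them passed the test over all arrays. Phosphoserine aminotransferase (Psat1) was at 8.21, 6.13 and 6.15 in KI_CD and 9.47, 8.68 and 9.11 in KI_MR (2.26 ± 0.45, limma adjusted p = 0.0999). The mitochondrial methylenetetrahydrofolate dehydrogenase (Mthfd2) was at 7.69, 6.41 and 6.44 against 9.01, 8.37 and 8.71 (1.85 ± 0.37, limma adjusted p = 0.0999). Phosphoglycerate dehydrogenase (Phgdh), the entry step of serine synthesis, was at 6.95, 7.28 and 6.58 against 8.52, 7.95 and 7.44 (1.03 ± 0.27, limma adjusted p = 0.225).

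In Psat1 and Mthfd2 the spread of the control group came from KI_CD replicate 1, which was the highest control array. Without it Psat1 passed at 2.95 ± 0.20 (limma adjusted p = 0.000144) and Mthfd2 at 2.27 ± 0.31 (limma adjusted p = 0.0107). Phgdh still missed at 1.04 ± 0.31 (limma adjusted p = 0.291). Of the 16 serine and folate genes 1 rose and 0 fell, 8 were above 0 and 8 below. In 10 the diets had no overlap, 7 higher and 3 lower, where 10.7% of all genes had none. The median of the list was 0.05 (0.0045 to 0.15). Psat1 and Mthfd2 lay outside the naming rule and were chosen with their values in view.

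Of the general amino acid response, Adm2 and Vldlr passed the test. Adm2, which encodes the peptide adrenomedullin 2, was at 6.78, 6.79 and 6.54 in KI_CD and 7.66, 7.37 and 7.58 in KI_MR and rose 1.78-fold (0.83 ± 0.12, limma adjusted p = 0.0226). Vldlr, the receptor for very low density lipoprotein, was at 7.79, 7.00 and 6.67 against 9.32, 8.78 and 8.41 and rose 3.21-fold (1.68 ± 0.28, limma adjusted p = 0.0473). The diets did not overlap in either gene. The Vldlr call was kept in 1 of the 12 fits that left out 1 array, the one without KI_CD replicate 1 (2.0, adjusted p = 0.00428).

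Asns, the asparagine synthetase gene, was at 11.11, 8.57 and 9.11 in KI_CD and 11.97, 11.99 and 11.98 in KI_MR. The restricted arrays were nearly equal, whereas 1 control array lay close below them (2.38 ± 0.48, limma adjusted p = 0.106). Without that array, KI_CD replicate 1, Asns passed at 3.14 ± 0.20 (limma adjusted p = 7.79e-05). Without KI_MR replicate 2 it missed at 2.38 ± 0.56 (limma adjusted p = 0.164).

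Fgf21, a hormone gene that protein and methionine restriction raise in liver, was at 7.97, 6.25 and 6.17 in KI_CD and 6.87, 6.44 and 6.11 in KI_MR. The diets overlapped, with a difference of -0.32 ± 0.43 (limma adjusted p = 0.997) and of 0.27 ± 0.29 without KI_CD replicate 1. In wild-type liver the diet difference of Fgf21 was 1.70, and the interaction of diet with genotype was -2.02 ± 0.61 (limma adjusted p = 1, unadjusted p = 0.00674). The stress genes Ddit3 (-0.48) and Trib3 (-0.19) overlapped as well, and in both the highest of the 6 knock-in arrays was KI_CD replicate 1. Atf4 itself was at 8.70, 7.89 and 8.27 against 8.50, 8.24 and 8.14 (0.01 ± 0.17). Of the 26 amino acid response genes 2 rose, 0 fell, 16 were above 0 and 6 had no overlap, all higher, where 42.9% of all genes were above 0 and 3.67% were higher without overlap. The median was 0.13 (0.00092 to 0.38), highest in the fit that left out KI_CD replicate 1. Ddit3, Trib3 and Atf4 were named after their values were seen.

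**Figure D2:**
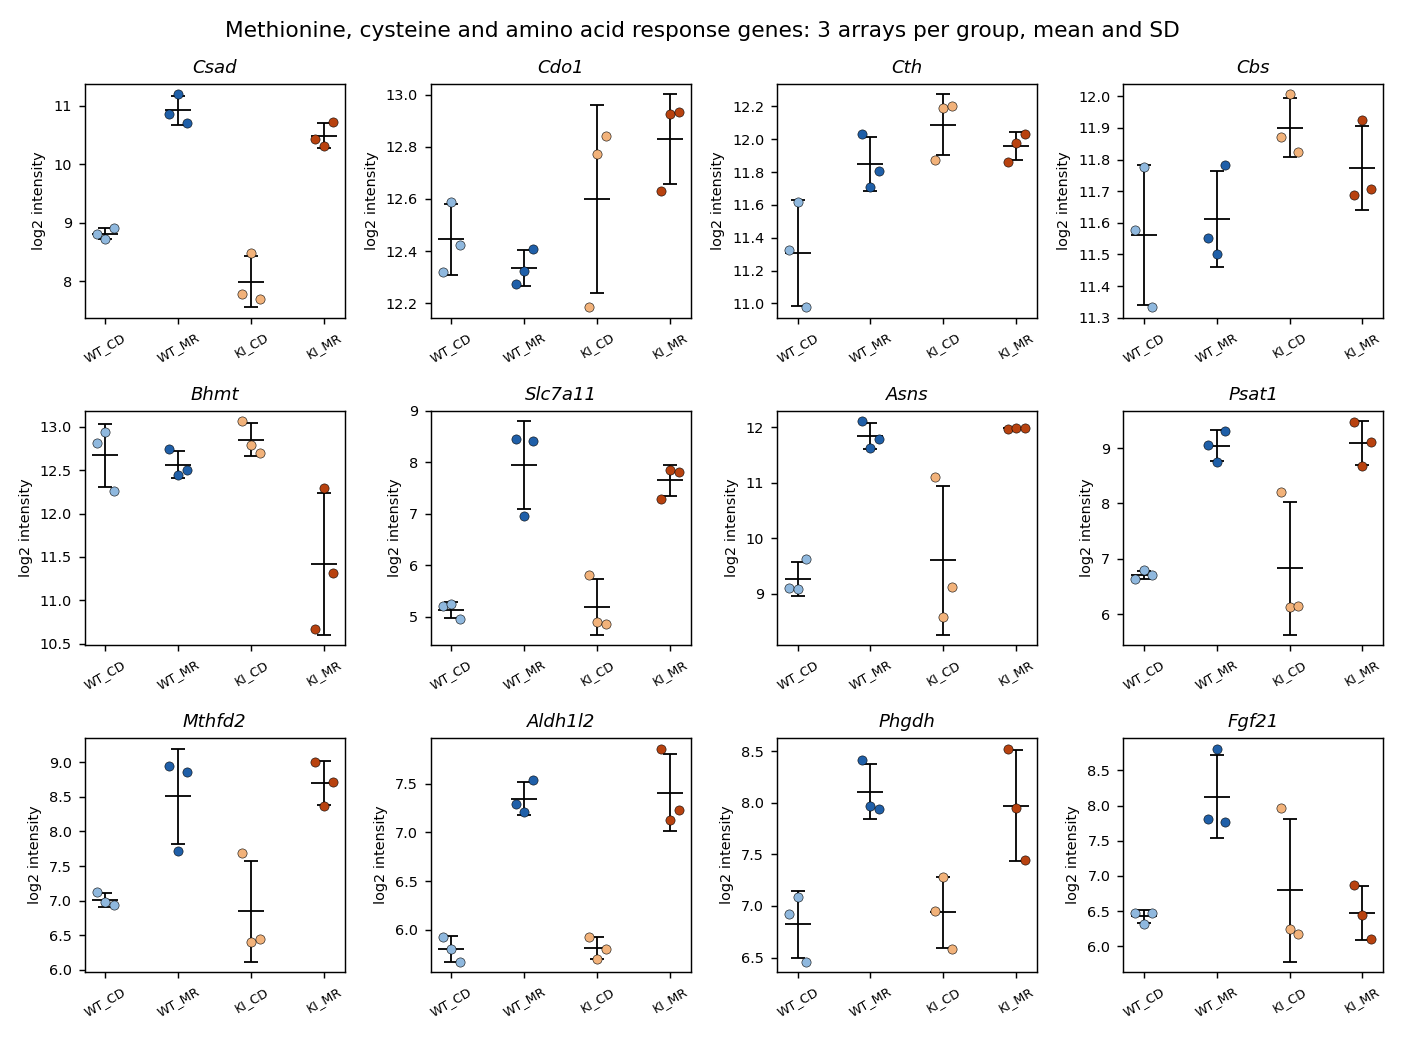
Levels of 12 genes of methionine, cysteine, serine and folate metabolism and of the amino acid response in all 4 groups: the y axis is log2 intensity, each point is 1 array, and the bar and whiskers are the mean and SD of 3 arrays. Csad, Slc7a11 and Aldh1l2 separate the KI_MR from the KI_CD arrays, Asns, Psat1 and Mthfd2 each have 1 high KI_CD array, and Cdo1, Cth and Cbs overlap between the knock-in diets.

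The methyl-group side of the methionine cycle showed lower means without a gene past the test. Betaine-homocysteine methyltransferase (Bhmt), which returns homocysteine to methionine with betaine, was at 13.06, 12.79 and 12.70 in KI_CD and 10.66, 12.29 and 11.31 in KI_MR. All restricted arrays lay below all control arrays, but they were spread over more than 1 log2 unit (-1.43 ± 0.32, limma adjusted p = 0.159). The other 2 Bhmt probe sets gave -0.55 and -1.52. Without KI_MR replicate 2, the highest restricted array, Bhmt passed at -1.86 ± 0.23 (limma adjusted p = 0.0099).

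The enzymes that handle the products of the betaine reaction had lower means too. Dimethylglycine dehydrogenase (Dmgdh) was at 11.73, 11.49 and 11.70 in KI_CD and 10.94, 11.29 and 10.96 in KI_MR (-0.58 ± 0.13, limma adjusted p = 0.138). Sarcosine dehydrogenase (Sardh) was at 11.91, 11.74 and 11.85 against 10.997, 11.62 and 11.33 (-0.52 ± 0.13, limma adjusted p = 0.217). The diets did not overlap in either gene, and KI_MR replicate 2 was the highest restricted array in both. Without it Sardh passed at -0.67 ± 0.11 (limma adjusted p = 0.0462), and Dmgdh missed at -0.70 ± 0.12 (limma adjusted p = 0.054).

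Methyltransferases that consume S-adenosylmethionine were mixed with regard to the test. The creatine synthesis enzyme Gamt was at 12.26, 12.08 and 12.32 against 11.85, 11.90 and 11.62 (-0.43 ± 0.12, limma adjusted p = 0.249). The nicotinamide N-methyltransferase gene Nnmt, named after its values were seen, was at 11.98, 12.26 and 11.84 against 9.34, 11.46 and 10.10 (-1.73 ± 0.49, limma adjusted p = 0.279).

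Thiopurine methyltransferase (Tpmt), which was on no list, fell 1.61-fold: its levels were 10.83, 10.80 and 10.97 in KI_CD and 10.12, 10.23 and 10.19 in KI_MR (-0.68 ± 0.10, limma adjusted p = 0.0233). The S-adenosylmethionine synthetase gene Mat1a differed by 0.02 ± 0.07 and the glycine N-methyltransferase gene Gnmt by -0.23 ± 0.16, and both overlapped. Of the 16 methionine cycle and methyltransferase genes 0 rose or fell by limma, 6 had an unadjusted p under 0.05, and 12 were below 0 with a median of -0.11 (-0.18 to -0.11), where 56.4% of all genes were below 0.

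Polyamine and methionine salvage genes differed little. Of the 11 measured, 0 were past the test or had an unadjusted p under 0.05 by limma, and the changes lay between -0.22 and 0.09. The smallest p values were those of the antizyme gene Oaz2 (-0.20), the antizyme inhibitor gene Azin1 (-0.22), spermine oxidase (Smox, -0.17) and the salvage enzyme gene Apip (-0.15).

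Among the glutathione genes 1 passed the test. Gpx6, a glutathione peroxidase, was at 7.26, 7.08 and 7.85 in KI_CD and 5.91, 6.11 and 5.73 in KI_MR. The groups were apart by nearly 1 log2 unit at their closest, and the fall was 2.79-fold (-1.48 ± 0.18, limma adjusted p = 0.013). The subunits of glutamate-cysteine ligase, the rate-limiting enzyme of glutathione synthesis, differed by 0.50 ± 0.19 (Gclc) and 0.23 ± 0.08 (Gclm), and the NRF2 target Nqo1 by 0.74 ± 0.27, with none past the test. These 3 were named after their values were seen. Of the 20 glutathione and NRF2 genes 0 rose, 1 fell and 17 were above 0, where 42.9% of all genes were, with a median of 0.16 (0.09 to 0.33), again highest in the fit that left out KI_CD replicate 1.

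Genes that differ between male and female liver held the largest change of the comparison. Cyp2b13, a female-biased cytochrome P450, was at 7.58, 5.39 and 6.41 in KI_CD and 11.10, 9.68 and 10.84 in KI_MR. The control arrays differed among themselves by more than 2 log2 units, and the lowest restricted array was still above the highest of them. The rise was 16.9-fold (4.08 ± 0.54, limma adjusted p = 0.0193). Cux2, a female-biased homeobox repressor, was at 7.52, 7.38 and 7.31 against 8.90, 8.25 and 8.64 and rose 2.29-fold (1.20 ± 0.15, limma adjusted p = 0.0137).

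The close paralog Cyp2b9 was already high in both diets. It was at 12.98, 12.43 and 12.97 in KI_CD and 13.36, 13.37 and 13.56 in KI_MR (0.64 ± 0.46, limma adjusted p = 0.876). Probes of Cyp2b9 and Cyp2b13 can share signal. In wild-type liver the diet difference of Cyp2b9 was 4.89, and the interaction was -4.25 ± 0.66 (limma adjusted p = 0.293). Of the 15 female-biased genes 2 rose and 0 fell, 13 were above 0 and 9 had no overlap, 8 higher and 1 lower. Over all genes 0.176% passed, 42.9% were above 0, and 3.67% were higher and 6.99% lower without overlap. The median was 0.71, and between 0.57 and 0.85 with each knock-in array left out in turn.

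Of the male-biased genes 1 passed the test. C6, a component of the terminal complement complex and male-biased in mouse liver, was at 9.88, 10.24 and 10.25 in KI_CD and 8.31, 8.64 and 8.49 in KI_MR. The groups were well apart, and the fall was 3.12-fold (-1.64 ± 0.27, limma adjusted p = 0.0462). Cyp4a12a, a male-specific fatty acid hydroxylase, was at 7.51, 8.38 and 8.54 against 7.26, 5.46 and 5.75 (-1.98 ± 0.42, limma adjusted p = 0.132), with KI_CD replicate 1 close to KI_MR replicate 1. Without KI_MR replicate 1 it passed at -2.53 ± 0.31 (limma adjusted p = 0.0237). It missed without KI_CD replicate 1 or KI_MR replicate 2 (limma adjusted p of 0.0553 and 0.223).

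The same control array set other male-biased genes apart. The anion transporter gene Slco1a1 was at 6.30, 11.19 and 11.11 in KI_CD and 7.08, 7.15 and 6.25 in KI_MR, so KI_CD replicate 1 lay among the restricted arrays. Over all arrays its change was -2.71 ± 1.06 (limma adjusted p = 0.524), and without KI_CD replicate 1 it was -4.32 ± 0.49 (limma adjusted p = 0.00413). The steroid dehydrogenase gene Hsd3b5 had the same pattern, with 5.58, 9.43 and 9.58 against 6.30, 5.75 and 5.0. Slco1a1 and Hsd3b5 were named after their values were seen. Of the 19 male-biased genes 0 rose, 1 fell and 18 were below 0, and 5 had no overlap, all lower. Over all genes 0.115% fell, 56.4% were below 0 and 6.99% were lower without overlap. The median of the list was -0.98, with a range of -1.32 to -0.61 over the fits without 1 knock-in array.

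**Figure D3:**
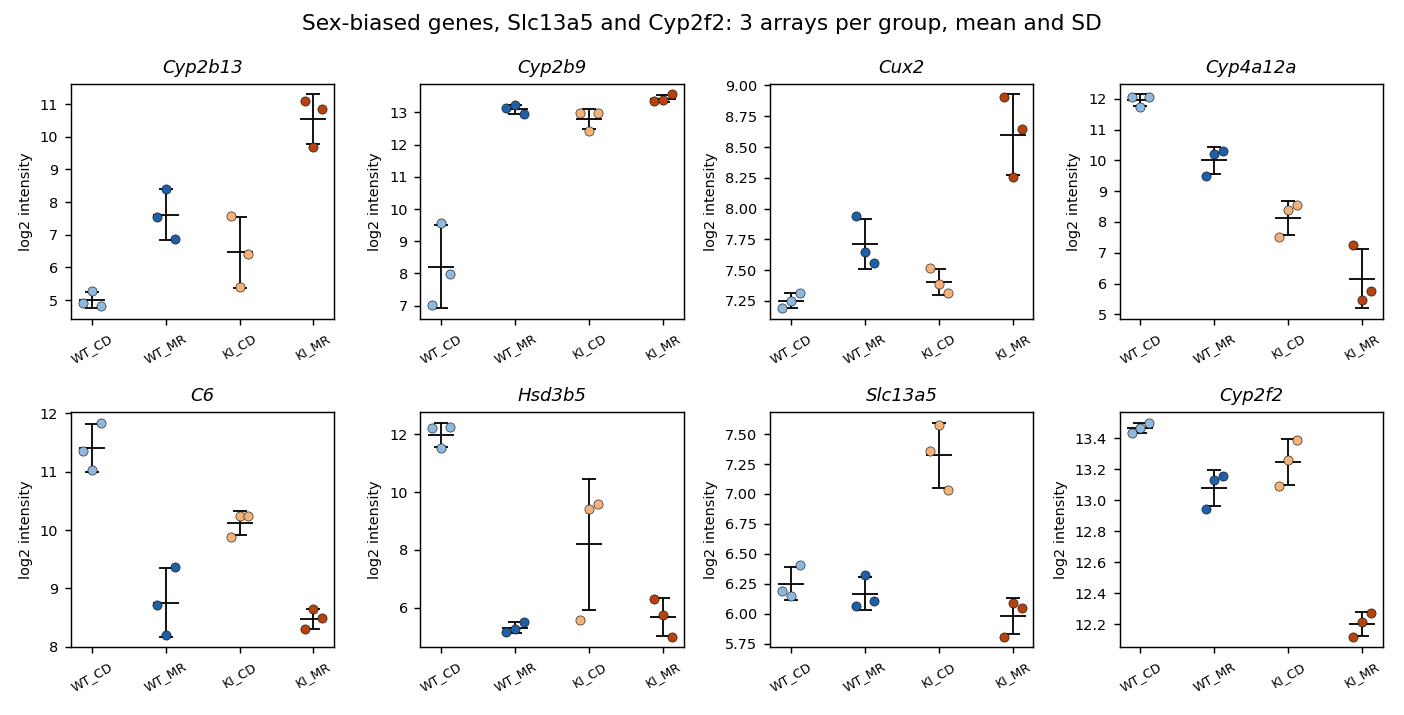
Levels of 6 sex-biased genes and of Slc13a5 and Cyp2f2 in all 4 groups: the y axis is log2 intensity, each point is 1 array, and the bar and whiskers are the mean and SD of 3 arrays. Cyp2b13 and Cux2 are highest and Cyp2f2 lowest in KI_MR, Cyp2b9 is high in 3 of the 4 groups, and 1 KI_CD array of Hsd3b5 lies among the KI_MR arrays.

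Growth hormone and insulin signalling genes showed 0 calls among 18 by limma and 2 with an unadjusted p under 0.05. The kinase gene Akt2 differed by -0.28 ± 0.08 and the binding protein gene Igfbp2 by -0.35 ± 0.15. The liver transcription factor gene Onecut1 was at 9.55, 10.44 and 10.99 in KI_CD and 8.75, 9.06 and 9.52 in KI_MR (-1.22 ± 0.67). The hormone gene Igf1 differed by -0.16 ± 0.10, and its binding protein gene Igfbp1 by -0.17 ± 0.52.

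Lipid and citrate metabolism held a fall of Slc13a5, the plasma membrane citrate transporter that brings citrate into hepatocytes as a substrate for fatty acid synthesis. It was at 7.36, 7.58 and 7.03 in KI_CD and 5.81, 6.09 and 6.04 in KI_MR, so all 3 restricted arrays lay about 1 log2 unit below the lowest control array. The fall was 2.54-fold (-1.34 ± 0.14, limma adjusted p = 0.00414). In wild-type liver the levels were 6.19, 6.15 and 6.41 on the control diet and 6.07, 6.32 and 6.11 on the restricted diet, a difference of -0.08. The interaction was -1.26 ± 0.19 (unadjusted p = 4.26e-05), the smallest unadjusted p of the interaction among the 35 genes, which were chosen on a contrast that is part of it.

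Slc13a5 was also the only one of the 35 genes past the test between the genotypes on the control diet, where KI_CD minus WT_CD was 1.07 (limma adjusted p = 0.018). That comparison and the diet comparison share the KI_CD arrays. In the list of 24 fatty acid and triglyceride synthesis genes 0 others passed, 14 were above 0 and the median was 0.11 (-0.02 to 0.33). The desaturase gene Scd1 differed by 0.10 ± 0.11.

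Gpr146, a receptor gene that affects lipoprotein secretion by hepatocytes, was at 10.14, 10.05 and 10.24 in KI_CD and 9.15, 9.57 and 8.81 in KI_MR and fell 1.95-fold (-0.97 ± 0.16, limma adjusted p = 0.0473). The acyl-CoA thioesterase family gene Them7 was at 8.72, 9.26 and 9.17 against 7.80, 8.19 and 8.28 and fell 1.94-fold. The D-lactate dehydrogenase gene Ldhd was at 9.79, 10.18 and 9.84 against 8.90, 9.20 and 9.01 and fell 1.86-fold. Adhfe1, a mitochondrial hydroxyacid-oxoacid transhydrogenase, was at 11.21, 11.24 and 11.29 against 10.74, 10.89 and 10.86 and fell 1.34-fold. The diets did not overlap in any of these 4 genes.

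Fatty acid oxidation and PPARA target genes gave 0 calls among 24 by limma, 4 with an unadjusted p under 0.05 and a median of 0.09 (-0.02 to 0.18). The mitochondrial gatekeeper gene Cpt1a was at 12.43, 12.33 and 12.08 in KI_CD and 11.61, 11.93 and 11.55 in KI_MR (-0.58 ± 0.13, limma adjusted p = 0.158). The peroxisomal thioesterase genes Acot3 (1.40 ± 0.39) and Acot4 (0.77 ± 0.29) differed the other way, and Ppara itself by -0.30 ± 0.11. Among 20 cholesterol synthesis genes 0 passed by limma, 5 had an unadjusted p under 0.05, 16 were above 0 and the median was 0.30, with a range of 0.06 to 0.47 without single knock-in arrays. Squalene epoxidase (Sqle) differed by 0.99 ± 0.33, squalene synthase (Fdft1) by 0.42 ± 0.11, the regulator Srebf2 by 0.28 ± 0.11 and the sterol isomerase gene Ebp by -0.47 ± 0.10, and Ebp passed without KI_MR replicate 2 (-0.57 ± 0.10, limma adjusted p = 0.0423).

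Bile acid genes gave 0 calls among 24 by limma and 7 with an unadjusted p under 0.05. Cyp7a1, which catalyses the rate-limiting step from cholesterol to bile acids, was at 11.59, 10.87 and 11.33 in KI_CD and 10.22, 9.35 and 10.77 in KI_MR. The highest restricted array lay just below the lowest control array (-1.15 ± 0.32, limma adjusted p = 0.272). The sterol 12-alpha-hydroxylase gene Cyp8b1, which sets the share of cholic acid, was at 8.20, 8.84 and 8.48 against 6.32, 9.19 and 7.52, and the restricted arrays spread over the whole range of the control arrays and beyond it (-0.83 ± 0.61, limma adjusted p = 0.879). The steroid dehydrogenase gene Hsd3b7 differed by -0.65 ± 0.16, and the export transporter gene Abcc3 by 0.90 ± 0.29.

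Besides C6, 0 of the other terminal complement genes measured passed the test over all arrays. They were chosen after their values were seen. C8a, which is also male-biased, was at 11.50, 11.92 and 11.26 in KI_CD and 9.32, 10.03 and 9.68 in KI_MR (-1.88 ± 0.34, limma adjusted p = 0.067). C8b was at 11.80, 12.66 and 12.38 against 10.70, 11.34 and 11.09 (-1.23 ± 0.28, limma adjusted p = 0.157). C9 was at 11.26, 11.52 and 11.42 against 7.77, 9.08 and 8.91 (-2.82 ± 0.61, limma adjusted p = 0.138). In each of these 3 genes all restricted arrays lay below all control arrays. C8a and C9 passed without WT_MR replicate 3, an array outside the comparison, but C8a missed without KI_CD replicate 1 or KI_MR replicate 2 (limma adjusted p of 0.0753 and 0.0579), as did C9 (0.153 and 0.143). The other components differed less: C8g by -0.31 ± 0.14 and C7 by -0.05 ± 0.12, both with overlap, and the C5 gene Hc by -0.31 ± 0.16.

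C4bp, which encodes an inhibitor that binds complement C4b, fell 1.52-fold. It was at 12.27, 12.30 and 12.19 in KI_CD and 11.60, 11.73 and 11.62 in KI_MR (-0.60 ± 0.09, limma adjusted p = 0.0283). Of the 29 complement and coagulation genes 0 rose, 1 fell, 25 were below 0 and 11 had no overlap, all of them lower. The median was -0.19 (-0.23 to -0.10). For all genes, 56.4% were below 0 and 6.99% had no overlap with KI_MR lower. C6 and C4bp both fell, so at most 1 of them is counted in this list.

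Acute phase genes gave 0 calls among 25 by limma and 6 with an unadjusted p under 0.05, while 23 were below 0 and the median was -0.31 (-0.46 to -0.20). Of all genes 7.78% had such a p and 56.4% were below 0. The orosomucoid gene Orm2 was at 11.52, 12.58 and 12.21 in KI_CD and 7.37, 9.44 and 9.12 in KI_MR (-3.46 ± 0.91, limma adjusted p = 0.23). Orm3 was at 6.58, 9.23 and 9.26 against 5.70, 6.32 and 6.81 (-2.08 ± 0.58), and without KI_CD replicate 1 it passed at -2.97 ± 0.28 (limma adjusted p = 0.00108). Steap4 differed by -0.81 ± 0.20, passing only in the fit without WT_CD replicate 3 among those without 1 array (limma adjusted p = 0.0438). The signalling inhibitor gene Socs3 differed by -0.52 ± 0.18, and its other, dimmer probe set by -0.03 ± 0.12. Orosomucoid genes are close paralogs and can share probe signal.

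Interferon-stimulated genes gave 0 calls among 19 by limma and 5 with an unadjusted p under 0.05, with 18 below 0 and a median of -0.25 (-0.31 to -0.18). Of all genes 7.78% had such a p and 56.4% were below 0. Oasl1 was at 8.28, 8.24 and 8.46 in KI_CD and 7.75, 8.08 and 7.78 in KI_MR (-0.46 ± 0.14, limma adjusted p = 0.315). The RNA sensor gene Ifih1 differed by -0.35 ± 0.14, Oas2 by -0.25 ± 0.10 and Oasl2 by -0.40 ± 0.17. Irf5, a transcription factor of innate immunity that was on no list, was at 7.84, 8.27 and 8.05 in KI_CD and 7.15, 7.37 and 6.99 in KI_MR and fell 1.85-fold (-0.88 ± 0.14, limma adjusted p = 0.0375). Mov10, an RNA helicase gene, was at 10.03, 9.84 and 9.83 against 9.26, 9.37 and 8.97 and fell 1.63-fold (-0.70 ± 0.10, limma adjusted p = 0.0207).

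Periportal genes were led by Cyp2f2, a cytochrome P450 of the hepatocytes around the portal vein. It was at 13.09, 13.26 and 13.39 in KI_CD and 12.12, 12.21 and 12.27 in KI_MR. Both groups were tight and far apart, and the fall was 2.06-fold (-1.04 ± 0.09, limma adjusted p = 0.0012), with the call kept in all 12 fits without 1 array. Of the 12 periportal genes 0 rose, 1 fell and 11 were below 0, with a median of -0.32 and a range of -0.43 to -0.19 without single knock-in arrays. In 2 the diets had no overlap, both lower, and 5 had an unadjusted p under 0.05 by limma, 1 higher and 4 lower. Over all genes 0.115% fell, 56.4% were below 0, 6.99% were lower without overlap and 7.78% had such a p.

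Of the 15 pericentral genes 0 passed by limma, 4 had an unadjusted p under 0.05, 12 were below 0 and the median was -0.09 (-0.22 to -0.02). The ammonium transporter gene Rhbg was at 8.31, 7.44 and 7.47 in KI_CD and 6.78, 7.06 and 6.46 in KI_MR (-0.98 ± 0.23). The ornithine aminotransferase gene Oat was at 12.29, 12.04 and 12.57 against 11.19, 11.97 and 11.08 (-0.89 ± 0.23, limma adjusted p = 0.23), and passed without KI_MR replicate 2 (-1.17 ± 0.19, limma adjusted p = 0.0397). The Wnt pathway receptor gene Lgr5 differed by -0.31 ± 0.14. The glyoxylate enzyme gene Agxt, in the list of urea cycle and amino acid catabolism, was at 11.18, 11.22 and 11.12 against 10.16, 10.74 and 10.47 (-0.72 ± 0.16, limma adjusted p = 0.166). In that list 0 of 18 genes passed by limma and 7 had an unadjusted p under 0.05, where 7.78% of all genes did. Below 0 were 17, where 56.4% of all genes were, and the median of the list was -0.22, and -0.41 without KI_CD replicate 1. The urocanase gene Uroc1 of that list differed by -0.38 ± 0.10.

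Clock genes held 1 fall. Bhlhe41, a repressor of the molecular clock, was at 5.95, 6.36 and 6.71 in KI_CD and 5.21, 5.49 and 5.04 in KI_MR. The restricted group lay under the lower quartile of gene levels, so the fall (-1.09 ± 0.17, limma adjusted p = 0.036) is best read as at least 1.78-fold. Among the 19 clock genes the other 18 did not pass, and the median was 0.12 (0.05 to 0.20).

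The lists tied to progeria and ageing showed 0 calls by limma. For the nuclear lamina and envelope, 19 genes had a median of -0.02 (-0.09 to 0.0061) and 4 had an unadjusted p under 0.05: the farnesyltransferase subunit gene Fnta at 0.25 ± 0.09, Sun2 at -0.42 ± 0.15, the lamin B1 gene Lmnb1 at -0.20 ± 0.08 and the lamin B receptor gene Lbr at 0.31 ± 0.13. For p53 targets and senescence, 17 genes had a median of -0.02 (-0.16 to 0.01) and 4 had an unadjusted p under 0.05, led by the sestrin gene Sesn1 at 0.50 ± 0.16. The others were the peptide transporter gene Tap1 at -0.33 ± 0.12, the antiproliferative gene Btg2 at -0.80 ± 0.31 and the RNA-binding protein gene Zmat3 at -0.34 ± 0.14.

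Cell cycle genes had a median of -0.25 over 25 genes, with 23 below 0, 0 calls by limma and 2 with an unadjusted p under 0.05. Here again KI_CD replicate 1 was high: the mitotic kinase gene Cdk1 was at 7.63, 6.04 and 5.91 in KI_CD and 5.70, 5.73 and 5.78 in KI_MR, and Plk1 was at 7.22, 5.52 and 5.43 against 5.39, 5.32 and 5.09. Without that array the median of the list was -0.02. Cdc20 differed by -0.54 ± 0.28 and the replication gene Mcm4 by -0.31 ± 0.12.

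Unfolded protein response and heat shock genes gave 0 calls among 20 by limma and 4 with an unadjusted p under 0.05, with a median of -0.08 (-0.15 to -0.04). The disulfide isomerase gene Pdia6 was at 10.89, 10.53 and 10.39 in KI_CD and 9.75, 10.05 and 9.74 in KI_MR (-0.76 ± 0.14, limma adjusted p = 0.0867). The chaperone genes Calr (-0.30 ± 0.09) and Sdf2l1 (-0.89 ± 0.26) were lower by means that missed the test. For Pdia4 the 2 probe sets differed in sign, at -0.32 and 0.35. Oxidative phosphorylation genes gave 0 calls among 26 by limma and 3 with an unadjusted p under 0.05, with 23 below 0, a median of -0.10 (-0.14 to -0.06) and a range of changes from -0.32 (Ndufa2) to 0.09. Gluconeogenesis and glycolysis genes gave 0 calls and 0 of 14 with an unadjusted p under 0.05 by limma, the smallest p values being those of Pfkfb3 (-0.48), Pcx (-0.17), Ppp1r3g (-1.06) and Gys2 (-0.29).

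**Figure D4:**
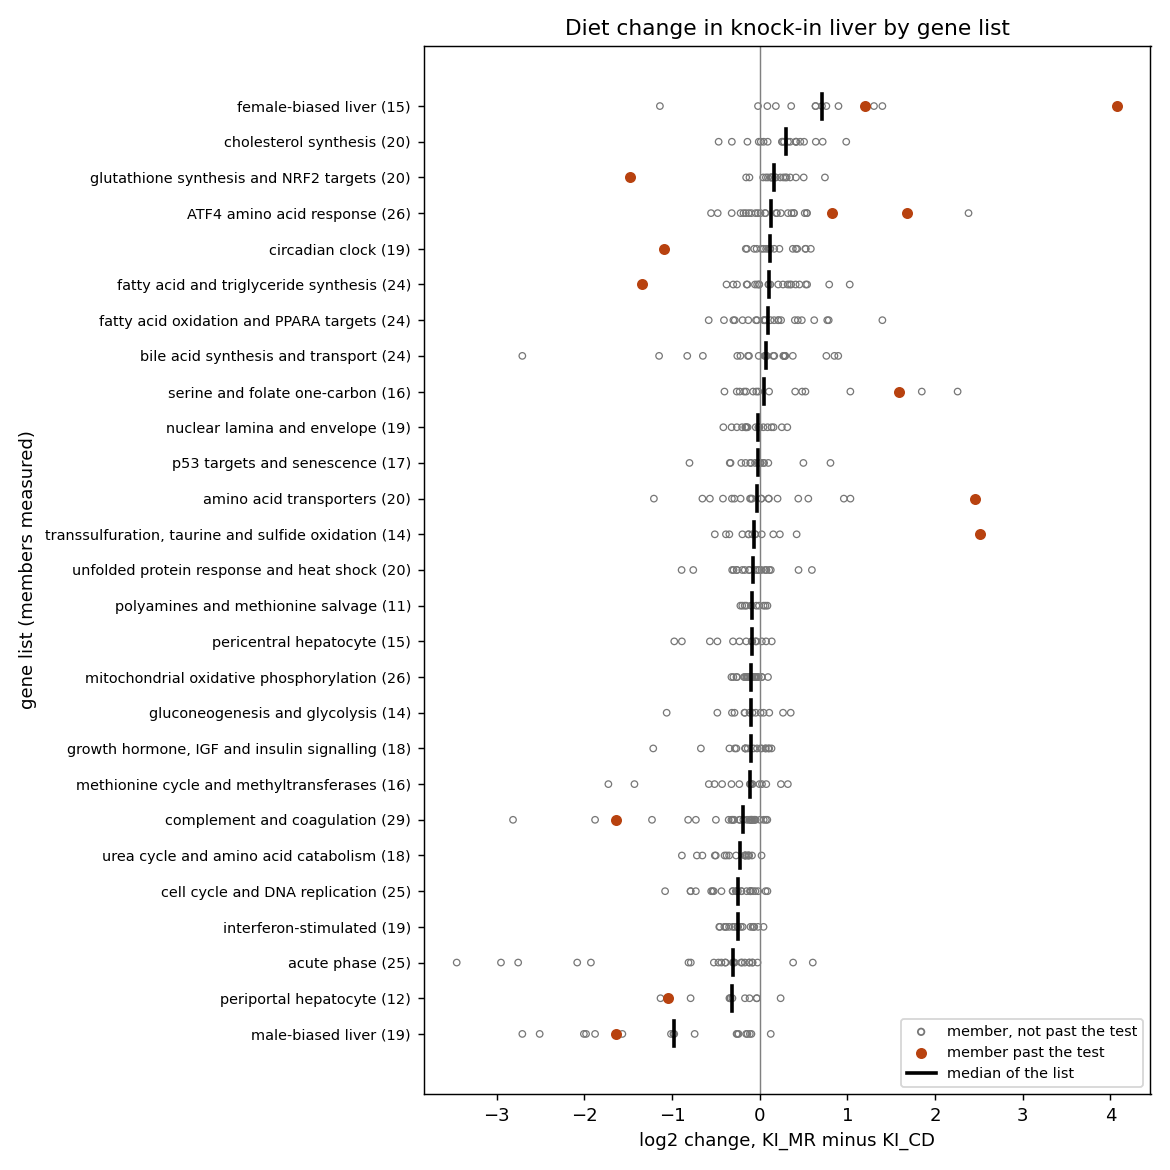
Change of every measured member of the pathway lists: the x axis is the log2 change, KI_MR minus KI_CD, each row is a list with its number of measured members, filled points are members past the test (adjusted p under 0.05), open points are other members and the bar is the list's median. The female-biased list has the highest median (0.71) and the male-biased list the lowest (-0.98), and most lists hold 0 or 1 member past the test.

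Several genes outside the lists also fell strongly. Adgrf1, an adhesion G protein-coupled receptor gene, was at 7.90, 7.91 and 8.26 in KI_CD and 5.86, 6.25 and 5.98 in KI_MR, with the groups far apart. It fell 3.99-fold (-2.00 ± 0.18, limma adjusted p = 0.0014). Sulf2, which removes 6-O-sulfate groups from heparan sulfate outside the cell, was at 8.52, 8.24 and 8.72 against 6.60, 7.29 and 7.04 and fell 2.86-fold (-1.52 ± 0.20, limma adjusted p = 0.0176). Clec2h, a C-type lectin gene, was at 7.52, 7.74 and 7.67 against 6.19, 5.98 and 6.29 and fell 2.82-fold (-1.50 ± 0.16, limma adjusted p = 0.00475).

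The smaller falls covered membrane proteins and secreted proteins. Itih5, an inter-alpha-trypsin inhibitor heavy chain, was at 7.74, 7.40 and 7.50 in KI_CD and 6.70, 6.71 and 6.85 in KI_MR (-0.79 ± 0.11). Olfm3, an olfactomedin gene, was at 6.63, 6.51 and 6.91 against 5.83, 5.95 and 5.83 (-0.81 ± 0.11). The orphan receptor gene Gprc5c fell by 0.56 on the log2 scale, and its other probe set gave -0.47. The transporter gene Slc22a18 (-0.42), the Golgi tethering subunit gene Cog4 (-0.46), the proton pump gene Atp4a (-0.54) and the membrane protein gene Tmem260 (-0.58) fell by less than 1.5-fold. These 4 genes had KI_MR and KI_CD arrays within 0.3 log2 units of their group and apart from the other group.

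Among the remaining rises, Itga6, the integrin alpha 6 gene, was at 6.94, 6.43 and 6.15 in KI_CD and 7.97, 7.61 and 7.92 in KI_MR and rose 2.51-fold (1.33 ± 0.21, limma adjusted p = 0.036). Ptbp2, a splicing regulator gene, was at 8.37, 8.55 and 8.63 against 8.97, 9.38 and 9.39 and rose 1.66-fold. Tdrkh, a gene of the piRNA pathway, was at 5.75, 5.81 and 5.86 against 6.66, 6.23 and 6.67 and rose 1.64-fold. The meiotic gene Mei4 lay under that quartile on the control diet and rose at least 1.08-fold. Cyp2c66, a cytochrome P450, was at 5.73, 5.78 and 5.61 against 6.15, 6.09 and 6.17 and rose 1.35-fold. All 5 genes lacked overlap between the diets.

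In wild-type liver, measured on arrays that share none with the knock-in comparison, most of these genes had a diet difference of the same sign. There 65 genes passed the test (0.326%), 42 higher and 23 lower. Of the 35 knock-in genes, 34 had the same sign in wild type: 12 of the 12 that rose and 22 of the 23 that fell. The exception was Slc22a18, at 0.08 in wild type. Some of the same-sign values were near 0, such as -0.03 for Adhfe1 and -0.04 for Gpr146. In 26 of the 35 the sign was the same and the wild-type unadjusted p was under 0.05 by limma. Of all genes, 8.19% had such a p in wild type, in either direction. Of all genes, 47.4% were above 0 and 52.1% below 0 in wild type. The genes past the test in both genotypes were Csad, Slc7a11, Vldlr, Aldh1l2, Mei4, Itih5, Olfm3, Bhlhe41, Clec2h, C6 and Adgrf1, which is 31.4% of the knock-in list and 16.9% of the wild-type list.

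For those 11 genes the changes in both genotypes stand side by side. Csad was higher by 2.11 in wild type and 2.51 in knock-in, Slc7a11 by 2.81 and 2.46, Vldlr by 1.90 and 1.68 and Aldh1l2 by 1.54 and 1.59. Adgrf1 changed by -2.26 and -2.00, Clec2h by -1.43 and -1.50 and Bhlhe41 by -1.30 and -1.09. C6 changed by -2.65 in wild type and -1.64 in knock-in, an interaction of 1.01 ± 0.38 (unadjusted p = 0.0223). Itih5 changed by -0.97 and -0.79, Olfm3 by -0.82 and -0.81, and Mei4 by 0.55 and 0.56.

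The difference between the genotypes was tested with the interaction of diet and genotype, where 0 genes passed by limma and 824 reached an unadjusted p under 0.05 (4.13%), with a smallest adjusted p of 0.293. None of the following differences between genotypes is therefore past the test. Among the 35 genes, 28 had a larger change in knock-in than in wild type and 14 had an unadjusted interaction p under 0.05, but they were chosen for their change in knock-in, so that larger values in knock-in are built into the choice. Besides Slc13a5, Cyp2f2 changed by -1.04 in knock-in and -0.39 in wild type (interaction -0.65 ± 0.12), Gpx6 by -1.48 and -0.37 (interaction -1.10 ± 0.25) and Gpr146 by -0.97 and -0.04 (interaction -0.93 ± 0.23). Cux2 changed by 1.20 and 0.46 (interaction 0.73 ± 0.21).

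In the other direction, 61 of the 65 wild-type genes had the same sign in knock-in, 38 of 42 higher and 23 of 23 lower. Among the serine, transport and amino acid response genes described above that missed the test in knock-in, the wild-type change was 2.57 for Asns, 2.33 for Psat1, 1.28 for Phgdh, 1.5 for Mthfd2 and 0.98 for Slc3a2, beside 2.38, 2.26, 1.03, 1.85 and 0.96 in knock-in. Fgf21, Ddit3, Trib3 and Atf3 had opposite signs in the 2 genotypes, with -0.32, -0.48, -0.19 and -0.56 in knock-in and 1.70, 0.48, 0.51 and 0.38 in wild type. None of these 4 passed the test in either genotype, and in each KI_CD replicate 1 was the highest of the knock-in arrays. The negative knock-in signs depended on that array. Without it the difference of Fgf21 was 0.27 ± 0.29. In KI_CD, Ddit3 was at 9.11, 6.92 and 6.88, Trib3 at 9.60, 7.32 and 7.42, and Atf3 at 9.12, 6.57 and 6.75. In KI_MR they were at 7.33, 7.23 and 6.91, at 7.85, 8.03 and 7.91, and at 7.19, 6.75 and 6.83. Atf3, another stress response gene, was picked with its values known. Bhmt differed by -0.11 in wild type against -1.43 in knock-in (interaction -1.32 ± 0.46, unadjusted p = 0.0152).

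**Figure D5:**
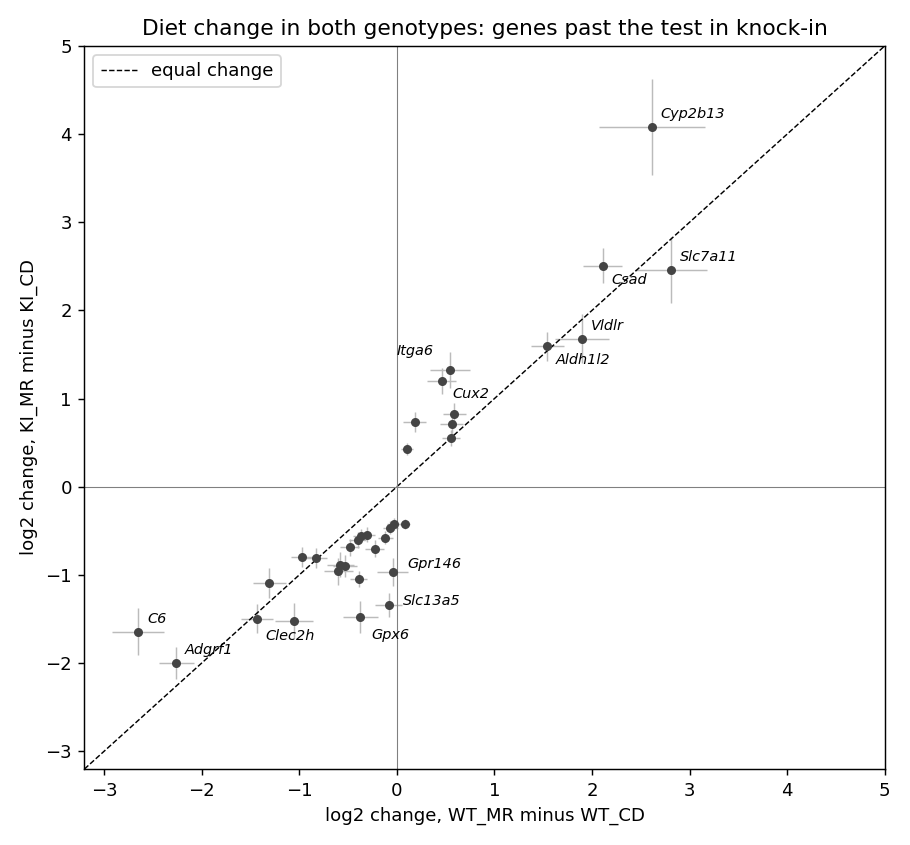
Change with the diet in both genotypes for the 35 genes past the test in knock-in liver: the x axis is WT_MR minus WT_CD, the y axis is KI_MR minus KI_CD, both in log2, whiskers are 1 SE and the dashed line marks equal change. Csad, Slc7a11, Vldlr, Aldh1l2, Clec2h and Adgrf1 lie near the line, whereas Slc13a5, Gpx6 and Gpr146 lie well below it with wild-type changes of -0.08, -0.37 and -0.04.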

How the data were processed

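Total liver RNA of 12 samples, extracted with Trizol and RNeasy columns and labelled with biotin per the labels' protocols, was measured on Affymetrix Mouse Gene arrays. Nothing in the labels states that the arrays are of separate animals; the p-values then measure only a spread between samples that may be technical. The values the authors deposited are linear intensities, whole numbers from 10 to 20042; background correction and scaling are not given in the sources used here. Their log2 was taken with no further scaling. The table held 35512 probe sets: 21789 with 1 gene symbol in the platform annotation, 1621 with several and 12102 with none. Each of the 19938 genes was represented by its brightest probe set (mean of the 12 arrays), and 999 genes had more than 1. Among the probe sets with several symbols or none, fitted on their own, limma called 0 and 821 had an unadjusted p under 0.05. The dimmer probe sets of genes with more than 1 were not in that fit. Values under 32 units made up 13.98% and are coarse through rounding.

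The 4 group means were fitted to all 12 arrays with limma 3.58.1 (R 4.3.3) and empirical Bayes moderation (8 residual and 3.14 prior degrees of freedom). All tests are two-sided; p-values were adjusted by Benjamini-Hochberg over the 19938 genes, with calls under 0.05. With 3 arrays in each group, the smallest p of an exact permutation test is 0.1. A group was called dim where its mean lay under the lower quartile of gene levels on its arrays, and the bound then sets each dim array at the higher of its value and that quartile. The members and the 27 pathway and 9 cell type lists were chosen with earlier results of these data known. The text names every gene past the test, the passing members of each list or else up to 4 members with the smallest p, and 20 genes whatever their values. Of the latter, Cdkn1a is not analysed here. Genes named outside that rule are marked as chosen after their values were seen. The fit was tested on simulated data. Promoters came from RefSeq (GRCm38.p6), matched by symbol. The alternatives were quantile normalization, median centring, filters on dim genes, averaged or all probe sets, an intensity trend with robust estimation, array weights, the compared arrays alone, a minimum log2 change of 1, a block for replicate number and each array left out. Figures were drawn with matplotlib 3.10.9 under Python 3.11.15. The labels give no batch or date.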

Additional observations from a re-analysis of the deposited data

Results flagged for a closer look

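Cyp7a1, the entry enzyme of bile acid synthesis, differed with the diet in opposite directions in the 2 genotypes, though neither difference passed the test. In knock-in liver it was -1.15 (limma adjusted p = 0.272), with all 3 restricted arrays below all 3 control arrays, and in wild-type liver it was 1.11 (limma adjusted p = 0.256), with all 3 restricted arrays above all 3 control arrays. The interaction of diet with genotype was -2.26 ± 0.46, which did not pass after adjustment over all genes (limma adjusted p = 0.652).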

How the results depend on the processing

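Limits: 3 arrays per group, 1 control array that stands apart and coarse dim values limit the precision. Of 760 values of the 35 called genes under the alternatives, 469 kept the call, 291 lost it and 0 reversed; 0 genes kept the call in every alternative, since the compared arrays alone called none. With each array left out in turn, the knock-in diet comparison called 7 to 94 genes (2 to 39 higher, 5 to 55 lower), the wild-type one 17 to 199, and the interaction 0 to 3. The 94 without KI_CD replicate 1 included 30 of the 35, and the 7 without KI_MR replicate 3 included 6. The interaction called Serpina7 without KI_CD replicate 3, Adgrg2 without KI_MR replicate 2, and Cyp2b9, Moxd1 and Serpina12 without WT_CD replicate 2, genes named after their values were seen. Median centring gave 18 genes (8 higher, 10 lower), all probe sets 18 (5 and 13) and a minimum log2 change of 1 gave 15 (7 and 8), with 37 in wild type. Array weights gave 130 (46 and 84), all 35 among them, with 2204 in wild type and a weight of 16.7 on WT_MR replicate 1. The compared arrays alone gave 0 in knock-in (0 higher, 0 lower by limma, 1472 at an unadjusted p under 0.05) and 131 in wild type. The cause of these shifts was not tested. Quantile normalization, the filters on dim genes, averaged probe sets and the trend with robust estimation gave 32 to 42 genes. The median change of all genes was -0.02 as fitted, -0.0015 after quantile normalization and 0.01 after median centring. With the replicate number as a block there were 34 genes (11 higher, 23 lower), 26 of them among the 35. Same-numbered KI_CD and KI_MR arrays deviated together with correlations of 0.071, 0.105 and 0.030. In the other pairs of groups same-numbered arrays gave correlations from -0.059 to 0.244. Whether a number marks a shared litter, day or batch is not in the labels and was not tested.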

Other observations

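A further 41 genes had an adjusted p between 0.05 and 0.1 by limma, 18 higher and 23 lower on the restricted diet. Those named here were picked from them with their values known, and none passed the test. The carboxylesterase genes went both ways: Ces1b was at 10.80, 10.30 and 10.96 in KI_CD and 11.92, 11.69 and 11.71 in KI_MR (1.09 ± 0.20), Ces1d differed by 0.90 ± 0.17, and Ces3a was at 12.12, 12.71 and 12.82 against 10.78, 11.88 and 10.98 (-1.34 ± 0.25). The aldehyde oxidase gene Aox1 differed by 1.17 ± 0.20, and the aldehyde dehydrogenase genes Aldh1a1 and Aldh7a1 by -0.67 ± 0.12 and -0.52 ± 0.09. Like Cyp7a1, Aldh1a1 went the other way in wild type (0.34 ± 0.12), with no overlap between the diets in either genotype. Its interaction was -1.01 ± 0.17 (limma adjusted p = 0.325, unadjusted p = 8.23e-05). The organic anion transporter gene Slc22a7 was at 8.13, 9.34 and 8.68 against 7.03, 7.15 and 6.77 (-1.73 ± 0.31). Acmsd, an enzyme of tryptophan breakdown that diverts it from NAD synthesis, was at 9.38, 8.23 and 8.69 against 7.13, 7.29 and 7.41 (-1.49 ± 0.29), with a wild-type difference of -0.17. The membrane protein gene Tmem267 was at 6.34, 6.38 and 6.55 against 8.29, 7.58 and 7.72 (1.44 ± 0.24), with a wild-type difference of 0.04. The interactions of diet with genotype did not pass for any of these genes by limma.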
